A study of Mus musculus with 21 samples.

Results

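The genes described here are 10 genes of the MHC class I presentation pathway: the heavy chain genes H2-K1, H2-D1 and H2-Q7, the light chain gene B2m, the peptide transporter and loading genes Tap1, Tap2 and Tapbp, the immunoproteasome genes Psmb8 and Psmb9, and the transactivator gene Nlrc5. They were chosen by name and by no measured value, though with earlier results of these data known, and each matched 1 row of the count tables, so that 10 of 27179 genes are described. All 10 passed the filter on low counts, which kept 16377 genes, and their counts ran from 273 reads (Psmb9) to 48888 reads (H2-K1) in a library. Libraries were made from kidney cells of male wild-type C57BL/6J mice that a nephrin antibody retained on a magnetic column, a fraction the labels call podocytes, the filtering epithelial cells of the glomerulus. Of the 21 libraries, 6 came from untreated young mice 4 months old, 7 from middle-aged mice 19.5 months old given saline, and 8 from middle-aged mice of the same age given 10 mg/kg of MCC950, an inhibitor of the NLRP3 inflammasome. Injections into the peritoneum ran for 6 weeks in both middle-aged groups and were not given to the young mice, so that age and injection cannot be told apart in the comparison with young mice.

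MHC class I molecules display peptides made inside a cell to CD8 T cells. The proteasome cuts proteins into peptides, TAP1 and TAP2 carry these into the endoplasmic reticulum, and tapasin (the product of Tapbp) holds the transporter next to an empty heavy chain paired with beta-2-microglobulin until a peptide binds. Interferon gamma is known to raise the whole set, in part through NLRC5 and IRF1, and to exchange constitutive proteasome subunits for the inducible subunits PSMB8 and PSMB9. Almost all nucleated cells carry these molecules, with high levels on cells of the immune system.

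The libraries held 27375870 to 36827823 counts in the young, 45772937 to 84876399 in the saline and 35440472 to 58247271 in the MCC950 group. The mitochondrial share differed between groups. It ran from 51.5% to 80.4% in young (median 71.1%), 63.0% to 79.2% in saline (median 68.6%) and 49.9% to 63.7% in MCC950 libraries (median 57.5%). All 10 podocyte markers were detected in every library, but 9 of them fell with age (saline against young), and their summed level, in CPM (the count as a share of the library, scaled to the usual CPM unit after TMM normalization), ran from 689 to 1566 in young, 264 to 506 in saline and 348 to 601 in MCC950 libraries. Over all genes tested, 12.4% fell with age. Markers of other kidney cells were also abundant: the summed level of 6 markers of the loop of Henle and distal tubule ran from 2256 to 4514 CPM over all libraries. By root mean square distance over all genes tested, MCC950 replicates 6 and 7 lay nearer the mean of the saline libraries (0.458 and 0.499 log2 units) than that of the other MCC950 libraries (0.513 and 0.532), against their label. All 7 saline libraries lay nearest the saline mean, with the smallest gaps in replicate 1 (0.402 against 0.429 to the MCC950 mean) and replicate 5 (0.461 against 0.500).

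Because the class I heavy chain and B2m genes are known to share a promoter layout, the stretches of promoter that hold it are shown first, from RefSeq on GRCm38.p6, 5′ to 3′ on the strand of the gene. Capitals mark 4 motifs searched on both strands, none of which overlapped another: an NF-kB site (GGGNNTTCC), a core bound by interferon regulatory factors (IRF core, AANNGAAA), the half-site TGACG of cyclic AMP response elements and X2 boxes, and the CCAAT or Y box. The heavy chain stretches are H2-K1 at chr17:34000349-34000468 (minus strand), H2-D1 at chr17:35262913-35263055 (plus) and H2-Q7 at chr17:35439012-35439153 (plus), followed by B2m at chr2:122147540-122147648 (plus).
H2-K1: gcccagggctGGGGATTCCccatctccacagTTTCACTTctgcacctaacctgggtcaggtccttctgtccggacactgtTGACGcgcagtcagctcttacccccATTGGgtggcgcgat
H2-D1: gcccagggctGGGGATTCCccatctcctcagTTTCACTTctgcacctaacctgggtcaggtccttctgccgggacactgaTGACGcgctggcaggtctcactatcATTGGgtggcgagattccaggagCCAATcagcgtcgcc
H2-Q7: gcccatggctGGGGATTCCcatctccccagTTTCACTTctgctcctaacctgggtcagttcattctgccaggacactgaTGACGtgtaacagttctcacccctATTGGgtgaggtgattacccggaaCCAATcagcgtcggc
B2m: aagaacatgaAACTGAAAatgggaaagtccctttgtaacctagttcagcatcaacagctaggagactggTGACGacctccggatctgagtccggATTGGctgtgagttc

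The 3 heavy chain promoters carried the 4 motifs in the same order and at nearly the same spacing. H2-K1 also had a second CCAAT box, at base 259 of its promoter of 300 bases. That box lies past the 250 bases before the start of the gene and so outside the stretch shown. Another annotated promoter of H2-K1 carried the motifs at the same spacing, with CCAAT boxes at bases 221 and 245, before its start. From the first base of the NF-kB site to that of the IRF core there were 21 bases in H2-K1 and H2-D1 and 20 in H2-Q7, and from the IRF core to TGACG there were 49 bases in each. Over the 54 bases from the IRF core to the end of TGACG, H2-K1 and H2-D1 were identical at 51, H2-D1 and H2-Q7 at 50, and H2-K1 and H2-Q7 at 48. The B2m promoter had no NF-kB match and 59 bases between the IRF core and TGACG, and its CCAAT box followed TGACG by 25 bases, as in H2-K1 and H2-D1. Of all 32851 promoters of 300 bases in the table, 5.82% held the NF-kB site, 23.9% the IRF core, 20.8% TGACG and 37.4% CCAAT, and 45 (0.137%) held all 4. The 45 include the heavy chain promoters described here, and the set of motifs was changed after these promoters were seen. The shares are thus no test of the layout. A match is a description of letters and does not show that a factor binds there.

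Tap1 and Psmb9 lie head to head, so that a single interval of 225 bases (chr17:34187331-34187555, plus strand for Tap1, minus strand for Psmb9) separates their starts, and it is shown because both genes share it. Psmb8 starts a short way downstream of Tap1 on the same chromosome, and the 250 bases before its start (chr17:34197945-34198194, plus) are shown because Psmb8 was the 1 gene of the 10 that passed the test in any comparison. None of the 4 motifs was found in them.
Tap1 and Psmb9: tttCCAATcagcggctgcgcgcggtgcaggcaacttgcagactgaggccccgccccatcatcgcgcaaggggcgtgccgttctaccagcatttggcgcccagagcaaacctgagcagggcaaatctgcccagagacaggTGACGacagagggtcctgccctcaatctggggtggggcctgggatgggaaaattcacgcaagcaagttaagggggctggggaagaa
Psmb8: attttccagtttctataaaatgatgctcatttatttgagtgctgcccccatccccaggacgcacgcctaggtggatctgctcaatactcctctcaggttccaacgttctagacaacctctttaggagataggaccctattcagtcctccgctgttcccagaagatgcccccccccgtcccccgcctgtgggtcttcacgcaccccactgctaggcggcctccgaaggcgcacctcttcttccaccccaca

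The shared interval held 1 CCAAT box and 1 TGACG half-site. The Tapbp promoter held 2 CCAAT boxes and none of the other 3 motifs. Promoters of 8 of the 10 genes were in the table, and those of Tap2 and Nlrc5 were not analysed here.

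Transcripts of most of these genes share stretches with other annotated genes, so that some reads may not be separable. Only transcript sequences were compared, on either strand, and whether any count was affected was not examined. Of the windows of 75 bases in the transcripts of H2-Q7, 17.0% also occurred in transcripts of another gene, first among them the heavy chain gene H2-Q10. The share was 18.6% for Tapbp (with the predicted gene Gm19412), 9.97% for Psmb8 (with the predicted gene Gm20496), 8.27% for Tap2, 5.56% for H2-D1, and under 5% for Psmb9 (3.44%, all with Tap1), H2-K1 (3.10%), Tap1 (2.40%, all with Psmb9) and Nlrc5 (0.046%), and B2m shared none. How the counting treated such reads, and whether it used strand, is not given in the sources used here, and values of H2-Q7 and Tapbp are the most uncertain for it.

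Per length, B2m was the most abundant of the genes, at 447 CPM per kilobase of annotated exon ± 132 (SD, n = 21), followed by H2-K1 at 171 ± 48.3 and H2-D1 at 123 ± 33.6. The loading gene Tapbp stood at 23.5 ± 3.49 CPM per kilobase and H2-Q7, which codes for a nonclassical Qa-2 heavy chain, at 13.6 ± 4.78. The lowest were Psmb9 at 4.04 ± 1.26 and Nlrc5 at 2.28 ± 0.798. The order of B2m, H2-K1, H2-D1, Tapbp and H2-Q7 was the same in all 21 libraries. H2-Q7 was above Psmb8 in 19, Psmb8 above Tap1 in 16 and Tap1 above Tap2 in 15 of 21, so that the middle of the order, where Psmb8, Tap1 and Tap2 had means of 9.47, 8.21 and 7.42, did not separate beyond the spread of the libraries. Exon lengths are unions over all annotated transcripts and lower the value of genes with long alternative forms.

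The first question was whether class I presentation genes differ with age. Psmb8 rose in middle-aged saline mice, and the other 9 genes did not pass the test. Of these 9, 8 had higher fitted levels in the saline group, by 0.18 to 0.49 on the log2 scale, and H2-Q7 had a lower one. By edgeR's quasi-likelihood test with Benjamini-Hochberg adjustment over all genes, 1 of 10 passed as higher and 0 as lower (adjusted p under 0.05), where 12.2% of all genes tested were higher and 12.4% lower, so that the share called higher was close to the background. At an unadjusted p under 0.05 there were 4 of 10 (Psmb8, Tap2, Tapbp and Psmb9), against 36.9% of all genes tested, and DESeq2 also called 1. The median log2 fold change of the 10 genes was 0.30 and that of all genes tested 0.02. In no gene of the 10 were the young and saline libraries fully apart, which was the case for 9.37% of all genes.

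**Figure D1:**
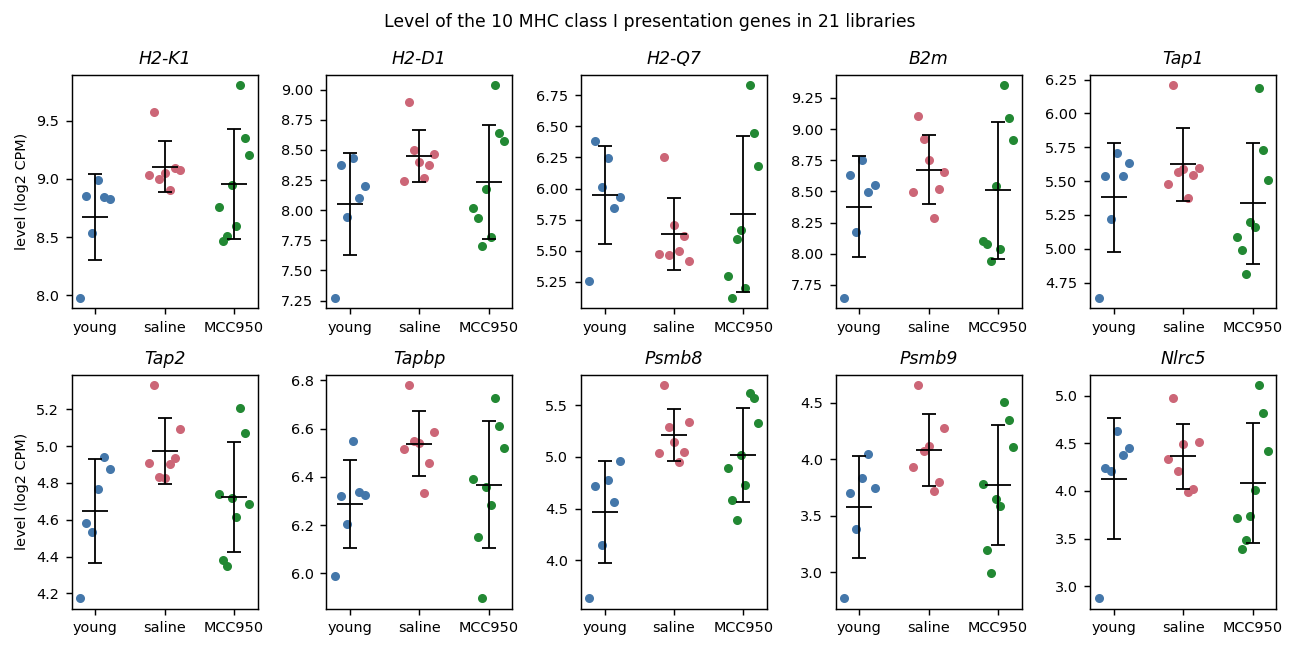
Level of each of the 10 genes in log2 CPM (vertical axis) in every library, by group (horizontal axis: young, n = 6; saline, n = 7; MCC950, n = 8); points are libraries, and the black bar and whiskers are the mean ± SD. The groups overlap in every panel, saline replicate 2 is the highest saline point in all 10 and young replicate 1 the lowest young point in all 10.

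Psmb8 codes for the inducible chymotrypsin-like subunit that replaces PSMB5 in the immunoproteasome. Its level had a lowest, median and highest value of 12.4, 25.0 and 31.1 CPM in young, 30.8, 35.4 and 51.7 CPM in saline and 20.99, 31.1 and 49.1 CPM in MCC950 libraries. All 7 saline libraries lay above the young median, and only the lowest saline library (30.8 CPM) lay below the highest young library (31.1 CPM). The fold change of saline against young was 1.63 (95% interval 1.20 to 2.22), a log2 difference of 0.71 ± 0.21 (SE; adjusted p = 0.0191, edgeR). The call rested on single libraries: the adjusted p was 0.0608 without young replicate 3 and 0.0586 without saline replicate 2, where the log2 differences were 0.65 and 0.60.

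Psmb9, whose product replaces PSMB6, ran from 6.79 to 16.4 CPM in young libraries (median 13.2), from 13.2 to 25.1 in saline (median 16.8) and from 7.95 to 22.8 in MCC950 libraries (median 13.1). The log2 difference of saline against young was 0.49 ± 0.23 (SE), with an adjusted p of 0.130 in edgeR. The groups overlapped, with 6 of 7 saline libraries above the young median.

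Among the heavy chains, H2-K1 had a lowest, median and highest level of 252, 457 and 508 CPM in young, 481, 532 and 764 CPM in saline and 353, 464 and 895 CPM in MCC950 libraries. H2-D1 had 155, 284 and 345 CPM in young, 303, 338 and 476 CPM in saline and 209, 274 and 525.5 CPM in MCC950 libraries. In both classical heavy chain genes all 7 saline libraries lay above the young median, and the spread of the MCC950 libraries covered most of the range of the other groups. The log2 difference of saline against young was 0.41 ± 0.20 (SE; 95% interval -0.0046 to 0.83) for H2-K1 and 0.37 ± 0.21 (-0.06 to 0.80) for H2-D1, with adjusted p of 0.140 and 0.205 in edgeR.

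H2-Q7 went the other way in its fitted value. It had 38.1, 62.8 and 83.2 CPM in young, 42.6, 45.2 and 76.1 CPM in saline and 34.7, 49.5 and 114 CPM in MCC950 libraries (lowest, median and highest), and 1 of 7 saline libraries lay above the young median. The log2 difference was -0.33 ± 0.25 (SE; 95% interval -0.84 to 0.19; adjusted p = 0.362, edgeR). Whether H2-Q7 differs from the other heavy chains in its response to age was not tested.

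B2m, the light chain of all class I molecules, ran from 200 to 431 CPM in young (median 369), 312 to 551 in saline (median 402) and 246 to 653 in MCC950 libraries (median 324). The log2 difference with age was 0.28 ± 0.23 (SE; adjusted p = 0.403, edgeR), and 4 of 7 saline libraries exceeded the young median.

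Of the transporter and loading genes, Tap1 ran from 24.8 to 52.2 CPM in young (median 46.5), 41.5 to 73.9 in saline (median 47.4) and 28.1 to 72.9 in MCC950 libraries (median 36.2). Tap2 ran from 18.0 to 30.7 CPM in young (median 25.6), 28.4 to 40.2 in saline (median 30.0) and 20.4 to 36.9 in MCC950 libraries (median 26.0). Tapbp varied least of the 10, from 63.5 to 93.4 CPM in young (median 80.0), 80.6 to 110 in saline (median 93.1) and 59.6 to 106 in MCC950 libraries (median 82.9). For Tap2 and Tapbp all 7 saline libraries lay above the young median, though the ranges met. Their log2 differences with age were 0.32 ± 0.14 (SE; 95% interval 0.03 to 0.61; adjusted p = 0.0979) and 0.25 ± 0.11 (0.01 to 0.48; adjusted p = 0.115) in edgeR, and that of Tap1 was 0.23 ± 0.20 (adjusted p = 0.447).

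Nlrc5, the transactivator of class I genes, was the most variable of the 10, with 7.29, 19.8 and 24.8 CPM in young, 15.9, 20.2 and 31.5 CPM in saline and 10.5, 14.7 and 34.4 CPM in MCC950 libraries (lowest, median and highest). Its log2 difference with age was 0.18 ± 0.28 (SE; 95% interval -0.41 to 0.76; adjusted p = 0.690, edgeR), and the upper bound of the interval is a 1.70-fold higher level in the saline group.

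**Figure D2:**
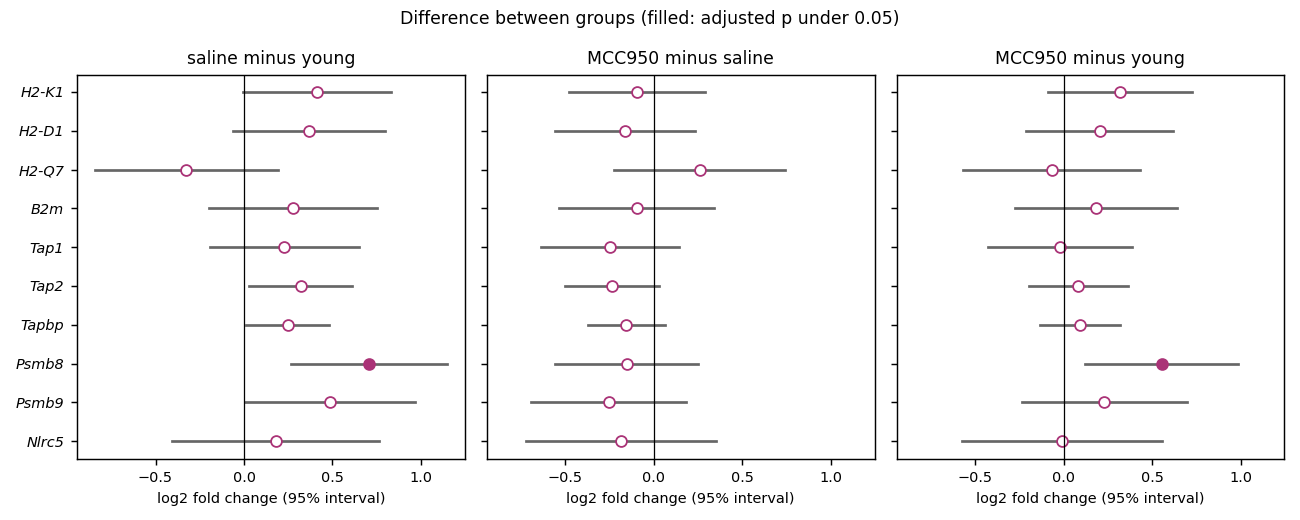
Log2 fold change of each of the 10 genes (vertical axis) in 3 comparisons, with the 95% interval as a line; filled points passed an adjusted p of 0.05 in edgeR. Psmb8 is the only filled point, in saline minus young and in MCC950 minus young, and no point is filled in MCC950 minus saline.

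The second question was whether NLRP3 inhibition changes these genes in middle-aged mice. No gene of the 10 passed the test between MCC950 and saline in either direction, in edgeR or in DESeq2, and none had an unadjusted p under 0.05, where 11.9% of all genes tested were higher, 4.86% lower and 31.6% had an unadjusted p under 0.05. A lower fitted level under MCC950 was found in 9 of the 10, with log2 differences of -0.26 (Psmb9) to -0.09 (H2-K1), and H2-Q7 had a higher one of 0.26. The median of the 10 was -0.16 and that of all genes tested 0.0028. No gene had fully separate groups, against 1.74% of all genes tested.

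The intervals show what the libraries could resolve. For Psmb8 the fold change of MCC950 against saline was 0.900 (95% interval 0.680 to 1.19), for H2-K1 0.937 (0.717 to 1.22) and for B2m 0.936 (0.691 to 1.27). Tapbp, at 0.898 (0.773 to 1.04), and Tap2, at 0.849 (0.706 to 1.02), had the narrowest intervals of the 10. The adjusted p ran from 0.213 (Tap2) to 0.793 (B2m) in edgeR.

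The same MCC950 libraries were high in most of these genes. The genes vary together, so that they do not count as separate observations, and whether the libraries form clusters was not tested. In 9 of the 10 genes, all but Tap2, the 3 highest MCC950 libraries were replicates 6, 7 and 8, and replicate 6 was the highest in all 10. H2-K1, for instance, stood at 895, 653 and 589 CPM in replicates 6, 7 and 8 and between 353 and 495 CPM in the other 5. H2-Q7 stood at 114, 87.1 and 72.7 CPM in these 3 and between 34.7 and 50.8 CPM in the other 5. The gap was smaller in Tapbp, with 91.8 CPM in replicate 8 and 83.8 CPM in replicate 1. Without MCC950 replicates 6 and 7, an alternative added after the data were seen, 6 of 10 genes passed as lower under MCC950 (H2-D1, Tap1, Tap2, Tapbp, Psmb9 and Nlrc5), with a median log2 difference of -0.46, where 13.4% of all genes tested in that fit were lower and 13.2% higher. Without saline replicate 5 as well, which an earlier analysis of these data had set apart with them, 7 of 10 passed as lower (all but B2m, H2-Q7 and Psmb8), with a median of -0.50, where 13.6% of all genes were lower. Those libraries were left out for their place in the expression pattern, in which these genes have a part, so that the counts measure how far the comparison rests on these libraries and are no test of the treatment.

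MCC950-treated mice were also compared with young mice, a comparison that shares its libraries with both of the others. Psmb8 rose by 0.55 ± 0.21 on the log2 scale (SE; 95% interval 0.12 to 0.98; adjusted p = 0.0395, edgeR), and 6 of 8 MCC950 libraries lay above the young median of 25.0 CPM. The other 9 genes did not pass, with log2 differences of -0.07 (H2-Q7) to 0.32 (H2-K1). Thus 1 of 10 was higher and 0 of 10 lower, where 21.8% of all genes tested were higher and 16.5% lower. Without adjustment 1 of 10 had a p under 0.05, against 47.7% of all genes, and the groups of no gene were fully apart, against 7.94% of all genes. The call of Psmb8 held in 7 of the 21 fits that each left out 1 library, with adjusted p up to 0.114 in the others, and was lost with DESeq2 size factors in edgeR (log2 difference 0.52, adjusted p = 0.0599), in a fit of the 2 groups alone (0.54, adjusted p = 0.0897), with a replicate block (0.46, adjusted p = 0.0704) and at equal depth (0.52, adjusted p = 0.0682).

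The genes varied together between libraries of the same group. After the mean of its own group was taken off, each gene followed the mean of the other 9 over the 21 libraries with a Pearson r of 0.874 (H2-Q7) to 0.983 (H2-K1), and Spearman's rho ran from 0.800 (Tap2) to 0.982 (Tap1). Without the 2 libraries farthest from the median the lowest r was 0.804 (H2-Q7). Over all pairs of the 10 genes the lowest r was 0.722 and the highest 0.975. The points share library, depth and cell composition, and these values are a description.

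**Figure D3:**
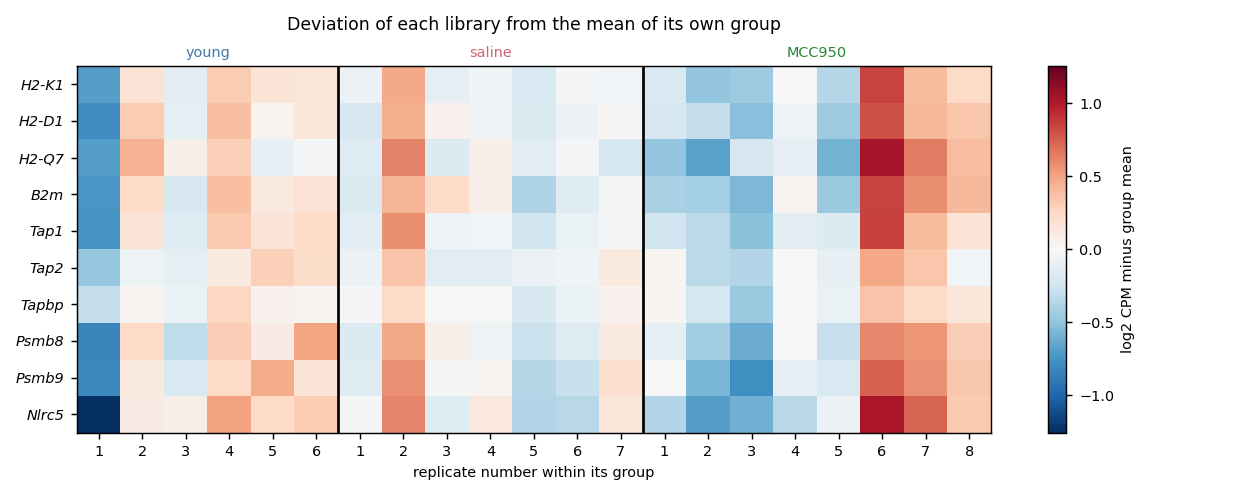
Log2 CPM of each of the 10 genes (rows) in each of the 21 libraries (columns, by replicate number within young, saline and MCC950) minus the mean of the gene in that group, as colour. Young replicate 1 is low and saline replicate 2 and MCC950 replicates 6 and 7 are high in all 10 rows.

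Young replicate 1 was the lowest young library in 10 of 10 genes, saline replicate 2 the highest saline library in 10 of 10 and MCC950 replicate 3 the lowest MCC950 library in 7 of 10. Averaged over the 10 genes, the level ran from 5.22 to 6.27 log2 CPM in young, 6.02 to 6.75 in saline and 5.57 to 6.84 in MCC950 libraries, with means of 5.95 ± 0.39, 6.27 ± 0.23 and 6.08 ± 0.46 (SD). The range within each group was thus wider than the differences between the group means. The within-group SD ran from 0.21 (Tapbp) and 0.26 (Tap2) to 0.47 (H2-Q7) and 0.55 (Nlrc5) on the log2 scale, with a median of 0.40, against 0.27 over all genes tested and 0.21 over those of at least 5 log2 CPM on average.

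The genes outside the 10 whose deviations were most like those of their mean, among 12242 compared, were Trafd1 (r = 0.966), Samhd1 (0.963), Lyn (0.951), H2-T23 (0.943), Gsdmd (0.940), AW112010 (0.938), Gbp3 (0.936), Slc11a1 (0.936), Zbp1 (0.935) and H2-T24 (0.934). The median r over all genes compared was -0.11. H2-T23 and H2-T24 are nonclassical heavy chain genes, Samhd1, Gbp3 and Zbp1 are known as interferon-inducible genes, and Lyn and Slc11a1 are known for their expression in cells of the myeloid lineage. Of the 10, Lyn (log2 difference 0.59, adjusted p = 0.0429) and Slc11a1 (0.98, adjusted p = 0.0219) rose with age in edgeR, and none passed between MCC950 and saline. Over all genes tested 12.2% rose with age, and 11.9% rose and 4.86% fell under MCC950 against saline.

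Markers of myeloid and dendritic cells moved with the class I genes in each group. Those of T and NK cells did so mainly in MCC950 libraries, and those of B and plasma cells only weakly. The mean of 9 macrophage and myeloid markers followed the mean of the 10 genes over the 21 libraries with r = 0.853 and rho = 0.906 after group means were taken off, and with r = 0.765 without the 2 farthest libraries; within groups r was 0.975 in young, 0.682 in saline and 0.835 in MCC950 libraries. For 5 dendritic cell markers r was 0.784, for 8 T and NK cell markers 0.580 and for 6 B and plasma cell markers 0.318. The podocyte markers gave r = 0.189, the endothelial markers r = -0.15, and the markers of the loop of Henle and distal tubule r = -0.81.

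**Figure D4:**
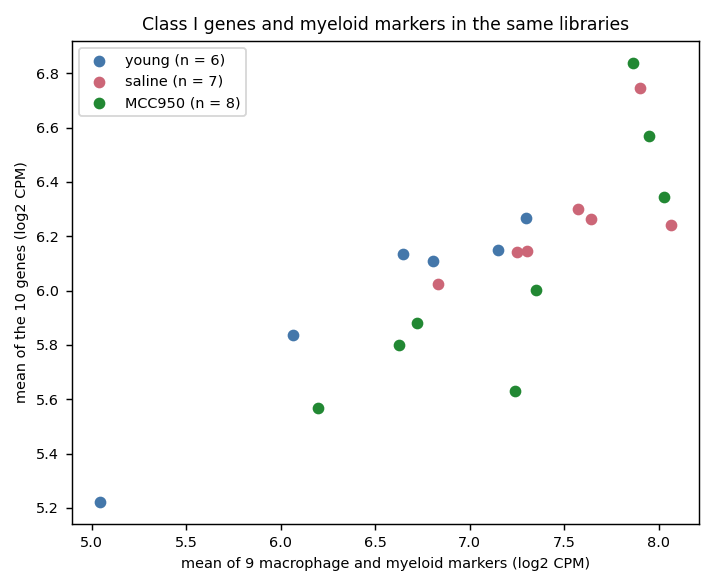
Mean level of the 10 class I genes (vertical axis, log2 CPM) against the mean of 9 macrophage and myeloid markers (horizontal axis, log2 CPM), 1 point a library, coloured by group. Points of each group run from lower left to upper right, with a within-group r of 0.853 over 21 libraries.

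The myeloid markers also differed with age. Of the 9, 3 rose and 0 fell in saline against young, none passed in either direction between MCC950 and saline, and 3 rose against young under MCC950. Their summed level ran from 429 to 2159 CPM in young (median 1440), 1572 to 3813 in saline (median 2607) and 1048 to 3785 in MCC950 libraries (median 2117), and none was at 0 in any library. The summed B and plasma cell markers ran from 39.1 to 173 CPM in young and 398 to 574 CPM in saline libraries, without overlap. Of the other immune lists, 5 of 8 T and NK cell markers, 3 of 6 B and plasma cell markers and 2 of 5 dendritic cell markers rose with age, and 1 dendritic cell marker fell. In the same comparison 7 of 8 endothelial and 5 of 6 mesangial and smooth muscle markers fell. Over all genes tested 12.2% rose and 12.4% fell with age. Under MCC950, 11.9% rose and 4.86% fell against saline, and 21.8% rose against young. The lymphocyte markers Cd3d, Cd3g and Ncr1 were at 0 in some libraries. In a bulk fraction, more cells of a type and more RNA per cell cannot be told apart.

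With the myeloid marker score as a covariate, the median log2 difference of the 10 genes with age was -0.10 in place of 0.30, 8 of 10 had a negative fitted value, and that of Psmb8 was 0.18 (adjusted p = 0.277). H2-Q7 then passed the test as lower in saline mice, at -0.82 (adjusted p = 0.0123, edgeR), where 10.4% of all genes were lower. With the same covariate 3 genes passed as lower in MCC950-treated than in young mice: B2m at -0.30 (adjusted p = 0.0385), Tap1 at -0.39 (adjusted p = 0.0158) and Nlrc5 at -0.52 (adjusted p = 0.0273), where 19.1% of all genes were lower in that fit. The score was measured in the same libraries and moves with age, so that a fit of this kind cannot assign the difference to cell composition or to level per cell.

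With the proximal tubule score as a covariate, the median of MCC950 against saline was 0.33 in place of -0.16 and all 10 fitted values were positive. None passed, where 2.36% of all genes were higher and 2.02% lower in that fit, against 11.9% and 4.86% without the covariate. In the same fit 6 of 10 passed as higher in MCC950-treated than in young mice, where 20.1% of all genes were higher. Of 8 proximal tubule markers 6 rose under MCC950 against saline, and their summed level ran from 987 to 2518 CPM in saline (median 1603) and 1732 to 4165 CPM in MCC950 libraries (median 3277). The part of these cells in the MCC950 comparison cannot be told apart from the treatment in these libraries.

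The other genes of the pathway were read from 6 lists holding 81 genes, of which 77 had a row and 73 were tested. Of the 73, 17 rose and 1 fell with age, 11 rose and 3 fell under MCC950 against saline, and 25 rose and 4 fell under MCC950 against young. Of all genes tested, 12.2% rose and 12.4% fell with age, 11.9% and 4.86% under MCC950 against saline, and 21.8% and 16.5% under MCC950 against young, and the shares of every list below are to be read against these.

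The list of constitutive proteasome genes held 14 core subunits and the activators Psme3 and Psme4. Of the 14 core subunits, 8 rose with age and 0 fell, with a median log2 difference of 0.27, 5 rose under MCC950 against saline (median 0.22), and 12 rose under MCC950 against young (median 0.49). Psme3 and Psme4 rose in both comparisons of MCC950 and did not pass with age. Psmb6, the constitutive partner replaced by PSMB9, had 8.35, 11.1 and 12.2 CPM in young, 13.9, 15.1 and 17.3 CPM in saline and 15.2, 17.9 and 21.2 CPM in MCC950 libraries (lowest, median and highest), so that young libraries lay below all others. It rose with age by 0.50 ± 0.09 (SE; adjusted p = 0.000758, edgeR). Psmb7, the partner of the inducible Psmb10, had a log2 difference of 0.30 ± 0.07 between MCC950 and saline (adjusted p = 0.00672), and Psmb5, the partner of Psmb8, one of 0.37 ± 0.11 (adjusted p = 0.0273).

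Of 4 other immunoproteasome and activator genes, 2 rose with age: Psme1, a subunit of the PA28 activator, by 0.50 ± 0.12 (adjusted p = 0.00343) and Pomp, the chaperone of proteasome assembly, by 0.46 ± 0.10 (adjusted p = 0.00195, edgeR). Both also rose under MCC950 against young, and none of the 4 passed between MCC950 and saline. Psmb10, the remaining inducible catalytic subunit, had a log2 difference of 0.47 ± 0.18 with age (adjusted p = 0.0589).

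Because inducible and constitutive catalytic subunits compete for the same places in the particle, the log2 ratio of each pair was compared between groups with an exact permutation test (two-sided), 9 tests in all. With age the ratio of Psmb8 to Psmb5 was 0.91 ± 0.32 in saline (n = 7) and 0.38 ± 0.65 in young libraries (SD, n = 6), a difference of 0.53 (exact p = 0.0793, adjusted over 9 tests 0.178). All 7 saline libraries lay above the young median of this ratio, and the ranges overlapped. The ratio of Psmb9 to Psmb6 differed by -0.0029 (exact p = 0.994).

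Between MCC950 and saline the differences of the 3 ratios were close to each other: -0.56 for Psmb8 over Psmb5 (exact p = 0.0550, adjusted 0.178), -0.53 for Psmb9 over Psmb6 (exact p = 0.0609, adjusted 0.178) and -0.56 for Psmb10 over Psmb7 (exact p = 0.00839, adjusted 0.0755). The Psmb10 to Psmb7 ratio ran from -0.46 to 0.23 in saline and -1.18 to -0.04 in MCC950 libraries, and 7 of 8 MCC950 libraries lay below the saline median. None of the 9 tests passed after adjustment, and the last passed without MCC950 replicate 7 (adjusted p = 0.0210). The constitutive genes Psmb5 and Psmb7 rose in this comparison, as given above, while Psmb8, Psmb9 and Psmb10 did not pass. A lower ratio therefore does not by itself show a lower level of the inducible gene. The smallest exact p that 6 against 7 libraries allow is 0.00117.

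**Figure D5:**
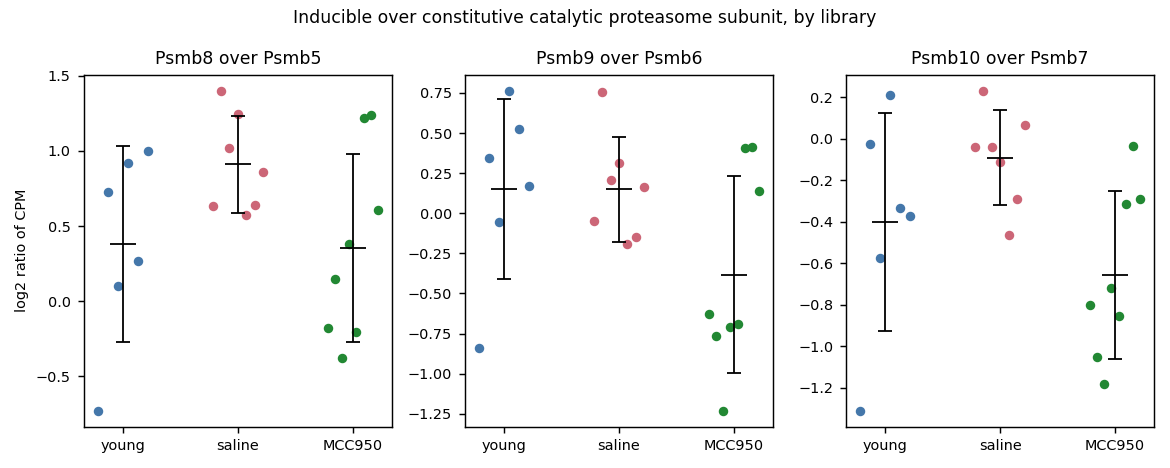
Log2 ratio of the CPM of an inducible to its constitutive catalytic proteasome subunit (vertical axis) in each library by group (horizontal axis), for 3 pairs; points are libraries, bar and whiskers the mean ± SD. MCC950 libraries reach the lowest values for Psmb9 over Psmb6, and 7 of 8 lie below the saline median for Psmb10 over Psmb7.

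Among 12 other peptide loading and trimming genes, 1 rose with age (Sec61a1, a subunit of the endoplasmic reticulum translocon, by 0.19 ± 0.06, adjusted p = 0.0329) and 4 rose under MCC950 against saline. These 4 were Hspa5, the chaperone BiP, by 0.57 ± 0.16 (adjusted p = 0.0213), the calreticulin gene Calr by 0.42 ± 0.13 (adjusted p = 0.0297), Pdia3, the oxidoreductase ERp57, by 0.32 ± 0.09 (adjusted p = 0.0189), and the cytosolic aminopeptidase gene Npepps by 0.26 ± 0.07 (adjusted p = 0.0158, edgeR). Hspa5, Calr and Pdia3 are also general chaperones of the endoplasmic reticulum. Against young mice 4 rose and 2 fell under MCC950, the latter being the trimming aminopeptidase gene Erap1 (-0.34 ± 0.09) and Lnpep (-0.63 ± 0.14), which codes for the insulin-regulated aminopeptidase.

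Of 16 other heavy chain genes tested, Hfe and H2-K2 rose with age. Hfe, a class I-like gene of iron regulation, had 14.9, 16.7 and 23.2 CPM in young and 27.2, 29.8 and 34.5 CPM in saline libraries (lowest, median and highest), without overlap, a log2 difference of 0.78 ± 0.13 (adjusted p = 0.000323). H2-K2, another heavy chain gene, rose by 0.58 ± 0.20 (adjusted p = 0.0372, edgeR), and 4.99% of its windows of 75 bases also occurred in other transcripts. Mr1, which presents vitamin B metabolites to MAIT cells, fell by 0.62 on the log2 scale under MCC950 against saline (SE 0.11; adjusted p = 0.00151). Its levels did not overlap, at 6.61 to 9.49 CPM in saline and 4.61 to 6.20 CPM in MCC950 libraries.

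Of 18 regulators of class I transcription, 1 rose and 1 fell with age, and 1 fell under MCC950 against saline. Rfx5, the X box factor with which NLRC5 acts, had 5.204, 6.08 and 6.81 CPM in young, 7.18, 8.13 and 9.52 CPM in saline and 4.83, 6.06 and 7.83 CPM in MCC950 libraries (lowest, median and highest). The saline libraries lay above all young libraries, a rise of 0.43 ± 0.11 (adjusted p = 0.00533), and the level fell by 0.44 under MCC950 against saline (SE 0.10; adjusted p = 0.00667, edgeR). Both comparisons use the saline libraries. The list also held Irf1, with a log2 difference of -0.29 ± 0.14 with age (adjusted p = 0.143) and 0.15 ± 0.13 under MCC950 (adjusted p = 0.470). Creb1, a factor of the X2 box, fell with age by 0.27 (SE 0.10; adjusted p = 0.0448), a call that was lost in 13 of the 21 fits that each left out 1 library.

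Of 7 genes tested for interferon receptors and their kinases, 3 receptor genes rose with age: Ifngr2 by 0.72 ± 0.19 (adjusted p = 0.00811), Ifngr1 by 0.56 ± 0.20 (adjusted p = 0.0432) and Ifnar1 by 0.40 ± 0.14 (adjusted p = 0.0416, edgeR). Ifngr2 had 15.98 to 31.8 CPM in young and 32.0 to 50.1 CPM in saline libraries, without overlap. The interferon genes Ifng and Ifnb1 did not pass the filter on low counts. Under MCC950 against saline the kinase gene Jak2 fell by 0.22 (SE 0.07; adjusted p = 0.0440), and the other 6 genes did not pass.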

How the data were processed

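mRNA-seq was analysed from 21 nephrin-selected kidney cell fractions, 6 young, 7 saline and 8 MCC950, each labelled as a separate replicate; p-values measure the spread between these libraries. The deposited values were raw counts of reads per Entrez gene, which the authors made by trimming with Trim Galore, aligning to mm10 with Bowtie2 (which makes no spliced alignments) and counting with featureCounts; versions, annotation, strand and the handling of reads shared by genes are not given in the sources used here. A normalized table of the same data was not used. No columns of the authors' comparisons were used.

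Counts were scaled by TMM and fitted over all 3 groups with edgeR 4.0.16 (R 4.3.3, limma 3.58.1; quasi-likelihood test), after edgeR's filter on low counts, which kept 16377 of 27179 genes, with Benjamini-Hochberg adjustment. Depth ran from 27375870 to 84876399 counts. Log2 CPM used a prior count of 2. Ratios were tested with scipy 1.17.1 under Python 3.11.15, numpy 2.4.6 and pandas 2.3.3. Gene names came from RefSeq (25275 of 27179 IDs matched), coordinates and promoters from RefSeq GRCm38.p6 and exon lengths and transcripts from GENCODE M21, which may not be the annotation used for counting.

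The 10 genes, the pathway and marker lists and the alternatives were chosen with earlier results of these data known. All 10 genes are named; from each pathway list up to 4 genes that passed were named by size of change among those of at least 1 log2 CPM on average, and Psmb5, Psmb6, Psmb7, Psmb10, Irf1 and Rfx5 whatever their result. The rule also named 1 regulator that is not reported here. The genes most like the 10 were those with the highest within-group Pearson r at 1 log2 CPM or more. Marker lists beyond those in the report were collecting duct (within-group r with the mean of the 10 genes -0.63), mesangium and smooth muscle (-0.03) and red blood cell (-0.16), and the proximal tubule list had -0.66.

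Alternatives were DESeq2 1.42.0, its size factors, no filter, at least 10 counts in every library, only the groups compared, a replicate block, mitochondrial genes left out, libraries thinned to 5804891 counts, 4 marker scores as covariates, 3 libraries left out together, each library left out and, added after the data were seen, MCC950 replicates 6 and 7 left out together. Deviations of same-numbered libraries had correlations of -0.06 to 0.35 (saline and young), -0.14 to 0.33 (MCC950 and saline) and -0.01 to 0.40 (MCC950 and young). Differently numbered libraries were not compared, so that these values cannot show whether the numbers pair mice. The numbers were not taken to pair mice, and the replicate block was run as an alternative. No 2 libraries of a group agreed within sampling noise (chi-square per degree of freedom at least 17.7). The test across genes was tested on simulated counts. The set of promoter motifs was changed after the promoter sequences were seen: a longer form of an interferon regulatory factor site and a site of another factor were searched first, each was found in the promoter of 1 of the genes, and the IRF core replaced both.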

Additional observations from a re-analysis of the deposited data

Results flagged for a closer look

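Of 39 groups of values examined (10 genes and 3 ratios in 3 groups), 5 held a library far from the others by Dixon's test, which chance gives in about 1 of 20. The genes vary together within a group, so that the 39 are not independent and the 5 cannot be judged by that rate. Saline replicate 2, the highest saline library in all 10 genes, stood far above the other 6 in 4 of them. It had 9.58 log2 CPM in H2-K1, where the next library had 9.09. In H2-D1 it had 8.90 log2 CPM, where the next had 8.50. It had 6.25 log2 CPM in H2-Q7 (next 5.70) and 6.21 in Tap1 (next 5.60). The macrophage and myeloid marker score of this library was 7.90 log2 CPM, within the saline range of 6.83 to 8.06, and its T and NK cell score was 1.02, within 0.13 to 1.08. Its dendritic cell score was 3.46, the highest of the saline libraries (next 3.24), and its loop of Henle and distal tubule score of 7.65 (next 7.81) and collecting duct score of 5.71 (next 5.97) were the lowest. Young replicate 1 had 2.87 log2 CPM in Nlrc5, where the next lowest young library had 4.20. Its myeloid score was 5.04 log2 CPM, the lowest of the young libraries, whose others ran from 6.07 to 7.30, and its proximal tubule score was 8.04, the highest, with the others at 6.37 to 7.23. The part of these scores in the values of these libraries was not tested.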

How the results depend on the processing

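Of the 10 genes, the direction and the side of the threshold held in 926 of 1050 combinations of gene, comparison and alternative. In 72 the sign changed, 28 kept the sign and lost a call, and 24 kept the sign and gained one. The 72 include B2m in MCC950 against young with the myeloid score, which also gained a call (-0.30, adjusted p = 0.0385, edgeR). Of the 10, none passed between MCC950 and saline under any alternative but the joint omissions of 2 and of 3 libraries. Counts were lowest for Psmb9 (at least 273 reads in a library) and Nlrc5 (at least 293). The cause of the changes below was not tested.

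Leaving out 1 library in turn, the number of the 10 genes higher in saline than in young mice ran from 0 to 1, and that in MCC950-treated against young mice from 0 to 1. Over all genes these numbers ran from 1353 of 16511 to 2270 of 16518 and from 2556 of 16506 to 3725 of 16475. Of the other pathway genes, 0 to 1 were then lower in saline against young, 4 to 15 higher and 2 to 5 lower in MCC950 against saline. All-gene counts varied too. Those lower in saline against young ran from 1638 of 16511 to 2403 of 16518. In MCC950 against saline, those higher ran from 1008 of 16320 (without saline replicate 4) to 2392 of 16313 (without MCC950 replicate 7). Those lower in that comparison ran from 515 of 16320 to 1007 of 16319. The log2 ratio of Psmb10 to Psmb7 (MCC950 against saline) ran from -0.65 to -0.49. The sign of some values near 0 changed: H2-Q7, MCC950 against young ran from -0.26 to 0.019, Tap1, MCC950 against young ran from -0.18 to 0.048, Nlrc5, MCC950 against young ran from -0.20 to 0.079, the ratio Psmb8 over Psmb5, MCC950 against young ran from -0.25 to 0.096, the ratio Psmb9 over Psmb6, saline against young ran from -0.20 to 0.12.

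With a replicate block, 0 of the 10 genes were higher in MCC950-treated than in young mice. Other pathway genes that were lower numbered 3 (saline against young) and 5 (MCC950 against saline). Of all 16377 genes in that fit, 3857 were higher in MCC950-treated than in young mice. Lower were 1888 in saline against young and 904 in MCC950 against saline. The replicate block changed no other count of the 10 or of the other pathway genes by over 1.5 times. Genes higher in MCC950-treated than in young mice were 0 of the 10 with DESeq2 size factors, with the 2 groups alone and at equal depth. Over all genes, 3012 of 16377, 2526 of 15817 and 2677 of 14884 were higher in these fits, in that order. Other pathway genes lower in saline mice were 0 with no filter, with at least 10 counts in every library, with the 2 groups alone and at equal depth. The counts over all genes were 1765 of 21934, 1853 of 13768, 2092 of 15780 and 1615 of 14884, in that order. Those lower under MCC950 against saline were 6 with DESeq2 and with at least 10 counts in every library, and 4 were higher at equal depth. All-gene counts moved as well: 1226 of 16473 were lower with DESeq2 and 846 of 13768 with at least 10 counts, against 796 of 16377 in the fit used above. At equal depth 1175 of 14884 genes were higher, against 1957 of 16377 in the fit used above.

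With the podocyte score as a covariate, 0.0672% of all genes were higher with age and 1.15% in MCC950 against young. In that fit 0 of the 10 were higher in either comparison, though the log2 difference of Psmb8 with age was 0.96 (adjusted p = 0.240) and the median of the 10 was 0.61; of the other genes 0 were higher and 0 lower with age, 6 lower in MCC950 against saline, and 3 higher and 1 lower in MCC950 against young. With the endothelium score all these counts with age and against young were 0, where 4 and 0 of all 16377 genes were higher and none lower, and 6 other genes were higher in MCC950 against saline. With the myeloid score, 0 of the 10 were higher in both comparisons with young. As lower, 1 passed with age and 3 in MCC950 against young. Of the other genes 12, 6 and 15 were lower with age, against saline and against young. In that fit 10.7% of all genes were higher and 10.4% lower with age, and 6.48% lower against saline. Against young 26.4% were higher and 19.1% lower. With the proximal tubule score, 6 of the 10 were higher in MCC950 against young. Of the other genes 5 were lower with age, 4 higher and 1 lower against saline, and 2 lower against young. In that fit 13.7% of all genes were lower with age, and 2.36% higher and 2.02% lower against saline. Against young 20.1% were higher and 15.6% lower. Without MCC950 replicates 6 and 7, an alternative chosen after seeing the data, 2 of the 10 were higher with age, 6 lower against saline and 0 higher against young. Of the other genes 0 were lower with age, 18 lower against saline, and 16 higher and 7 lower against young. In that fit 12.6% of all genes were higher and 14.1% lower with age, and 13.4% lower against saline. Against young 16.5% were higher and 19.8% lower. Without saline replicate 5 as well, 3 of the 10 were higher with age, 7 lower against saline and 0 higher against young. Of the other genes 0 were lower with age, 5 higher and 21 lower against saline, and 16 higher and 9 lower against young. In that fit 12.2% of all genes were higher and 12.9% lower with age, and 13.2% higher and 13.6% lower against saline. Against young 16.4% were higher and 19.7% lower.

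With the myeloid score as a covariate, the log2 difference changed sign to H2-K1 -0.030, H2-D1 -0.13, B2m -0.31, Tap1 -0.25, Tapbp -0.011, Psmb9 -0.063, Nlrc5 -0.45 (saline against young), and B2m 0.0089 (MCC950 against saline), and H2-K1 -0.043, H2-D1 -0.20, B2m -0.30, Tap2 -0.12, Tapbp -0.11, Psmb9 -0.21 (MCC950 against young). With the podocyte score, the log2 difference changed sign to H2-Q7 0.31 (saline against young), and H2-Q7 0.37, Tap1 0.21, Nlrc5 0.32 (MCC950 against young). With the endothelium score, the log2 difference changed sign to Tap1 -0.037, Tap2 -0.057, Psmb9 -0.12, Nlrc5 -0.27 (saline against young), and Tap2 -0.38, Tapbp -0.18, Psmb9 -0.53 (MCC950 against young). With the proximal tubule score, the log2 difference changed sign to H2-K1 0.33, H2-D1 0.33, B2m 0.50, Tap1 0.20, Tap2 0.0062, Tapbp 0.098, Psmb8 0.37, Psmb9 0.27, Nlrc5 0.51 (MCC950 against saline), and H2-Q7 0.35, Tap1 0.34, Nlrc5 0.58 (MCC950 against young). Without saline replicate 5 and MCC950 replicates 6 and 7, the log2 difference changed sign to H2-Q7 -0.20 (MCC950 against saline), and H2-K1 -0.0098, H2-D1 -0.11, B2m -0.18, Tap2 -0.15, Tapbp -0.094, Psmb9 -0.10 (MCC950 against young). Without MCC950 replicates 6 and 7, the log2 difference changed sign to H2-Q7 -0.17 (MCC950 against saline), and H2-K1 -0.0095, H2-D1 -0.11, B2m -0.18, Tap2 -0.15, Tapbp -0.094, Psmb9 -0.10 (MCC950 against young). With no filter, the log2 difference changed sign to Nlrc5 0.0088 (MCC950 against young). At equal depth, the log2 difference changed sign to Nlrc5 0.0072 (MCC950 against young).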
